A study of Oryza sativa Japonica Group with 8 samples.

Results

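Leaves of rice plants that overexpress OsGRP3 were compared with leaves of non-transgenic (NT) plants of the same cultivar, gene by gene over the whole transcriptome. The comparison takes 4 of the 8 libraries of the study, chosen by their labels: 2 OsGRP3-OE libraries and 2 NT libraries of the japonica cultivar Nakdong. By the labels and the study's methods, the plants of both groups were grown in soil for 4 weeks without any treatment, and leaf mRNA was sequenced. A figure legend of the study instead gives 2-week-old plants. In OsGRP3-OE plants the OsGRP3 coding sequence, amplified from cultivar Nipponbare, is driven by the constitutive OsCc1 promoter. The study selected plants with a single copy of the insert, but which line or lines were sequenced is not given in the sources used here. Nor do they say whether the replicates were separate plants or pools, so the p-values below measure only the spread between these libraries. The other 4 libraries are from RNAi knockdown (OsGRP3-KD) and NT plants of cultivar Dongjin. They entered the choice of genes to test, the scaling and the estimate of the spread, and are described mainly at the end.

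Gene counts summed to 30159603 and 38940899 in the NT Nakdong libraries and to 30446472 and 27662050 in the OsGRP3-OE libraries. Of 37869 annotated genes, 24383 had enough counts to be tested. Across the tested genes the Pearson correlation of log2 levels was 0.985 within the NT pair, 0.961 within the OsGRP3-OE pair and 0.944 to 0.945 between the groups, so the OsGRP3-OE pair was the less alike of both pairs. The share of coverage at the 5′ end of transcripts was alike in the 4 libraries, with a median log2 ratio of first to last exon between -2.87 and -2.51, while the NT Dongjin libraries stood apart at -0.87 and -0.80. The libraries labelled OsGRP3-KD were at -2.56 and -2.90, like those of Nakdong. Calls made from the 4 Nakdong libraries alone are therefore given beside the main count.

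OsGRP3 is a glycine-rich RNA-binding protein, a small protein with an RNA recognition motif at its N terminus and a glycine-rich C-terminal stretch. Relatives of this kind bind mRNA and act on splicing, stability, export and translation, and GRP7 of Arabidopsis is known for its daily rhythm and its part in immunity. A change in the amount of such a protein can therefore be followed through the levels of many transcripts, which is what these libraries measure. In bulk leaf RNA, fewer cells of a type and less RNA per cell cannot be told apart.

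The coding sequence placed in the vector was amplified with the primer pair below, shown because it marks the ends of the transgene product. The capitals mark the start codon in the forward primer and the complement of the stop codon in the reverse primer, both written 5′ to 3′. The last line is the reverse complement of the reverse primer, with the stop codon in capitals.
OsGRP3 CDS forward: caccATGgcggcgccggatgtcga
OsGRP3 CDS reverse: TCAgttcctccagttcccgc
OsGRP3 CDS reverse, reverse complement: gcgggaactggaggaacTGA

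The OsGRP3 gene, Os03g0670700, spans 26460057 to 26461156 of chromosome 3 (IRGSP-1.0, plus strand) and is annotated with 4 transcripts. Its level was 1250 and 1171 counts per 1000000 counts of its library (CPM) in the NT libraries and 1527 and 1928 CPM in the OsGRP3-OE libraries. The overexpressor values were thus higher than either NT value. The fitted change was 0.51 ± 0.12 on the log2 scale (SE, n = 2 libraries per group), a fold of 1.43, with a Benjamini-Hochberg adjusted p of 0.0666 in edgeR's quasi-likelihood test. The overexpressed gene thus missed both the 2-fold and the adjusted threshold, and across the 11 alternative fits its adjusted p ran from 0.000124 to 0.399. Without OsGRP3-OE replicate 1 the log2 change was 0.67 (adjusted p = 0.00588), still under 2-fold.

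The difference was not even along the gene. In the first 209 bases of the first exon the coverage per 1000000 counts was 282 and 223 in NT and 245 and 418 in OsGRP3-OE libraries, and the groups overlapped. In the next 150 exonic bases it was 164 and 186 in NT and 247 and 306 in OsGRP3-OE libraries, and the groups were apart. In 279 bases of the last exon it was 71.3 and 67.5 in NT and 91.9 and 81.7 in OsGRP3-OE libraries, again apart. In shorter segments this varied. Over 42 bases it was 44.5 and 38.8 in NT and 56.1 and 42.2 in OsGRP3-OE libraries, which overlapped. Over 15 bases it was 57.37 and 51.87 in NT and 67.76 and 57.59 in OsGRP3-OE libraries, barely apart. The counts do not separate transcripts of the transgene from those of the resident gene.

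**Figure D1:**
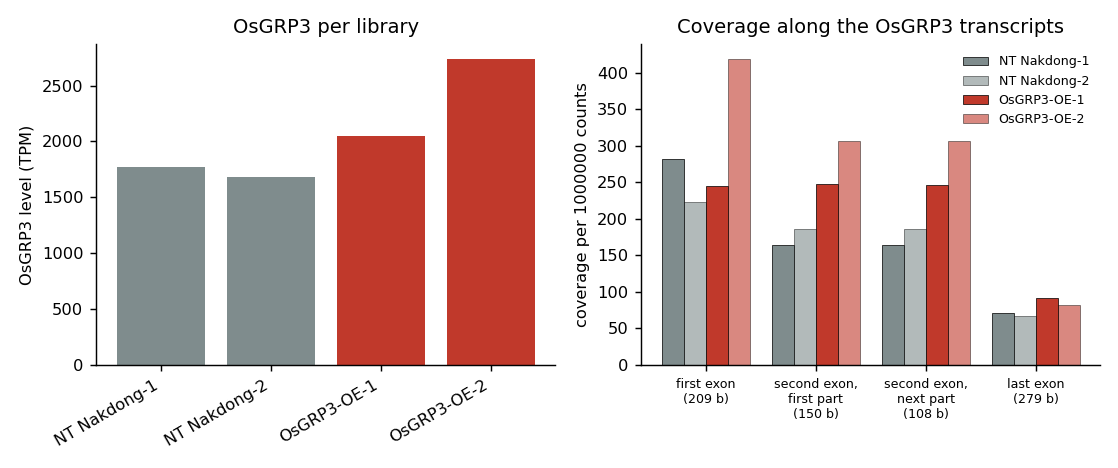
OsGRP3 level in transcripts per 1000000 (TPM) by library, left, and coverage per 1000000 counts of 4 exon segments by library, right, with a bar for each library. The NT libraries stand at 1774 and 1687 TPM and the OsGRP3-OE libraries at 2047 and 2736 TPM, and the groups overlap in the first exon but not in the other segments.

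Most genes moved little. The median absolute log2 fold change of the 24383 tested genes was 0.19, and 91.2% of them stayed under 2-fold. A gene was called when it changed at least 2-fold with an adjusted p under 0.05, which held for 359 genes or 1.47% of those tested. Of these, 151 (0.619%) were higher and 208 (0.853%) lower in OsGRP3-OE leaves. Before adjustment, 1.74% were higher and 2.6% lower by 2-fold at p under 0.05, and 14.1% of tested genes had an unadjusted p under 0.05 at any fold. The libraries of both groups did not overlap in any of the 359, which also held for 45.8% of all tested genes and, together with a 2-fold change, for 7.27%. Where groups are said below to be apart, this holds for every called gene and is no further evidence for a single one.

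The called genes fell into modest and very large changes. By the fitted change, 123 genes lay between 2- and 4-fold, 99 between 4- and 32-fold, and 137 over 32-fold. For genes at 0 in a group the fitted size is not measured, and the bound against 3 counts can be under 32-fold. Os01g0144900, for example, had a fitted log2 change of -7.37 but was at least 12.6-fold lower by that bound. In 114 genes the lower group had 0 counts in both libraries, 48 of them read only in OsGRP3-OE and 66 only in NT leaves. Levels were mostly moderate: 235 of the 359 had a mean of at least 5 CPM in the higher group, but only 76 reached 5 CPM in every library. No function can be read from 156 of the descriptions, which call the gene hypothetical or of unknown function.

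Leaving out NT Nakdong replicate 1 gave 91 calls up and 111 down, and leaving out NT Nakdong replicate 2 gave 93 and 120. Without OsGRP3-OE replicate 1 there were 172 up and 331 down. The 4 Nakdong libraries alone gave 177 and 222, of which 325 were among the 359. Across all 11 alternatives 76 genes stayed called, 36 up and 40 down.

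**Figure D2:**
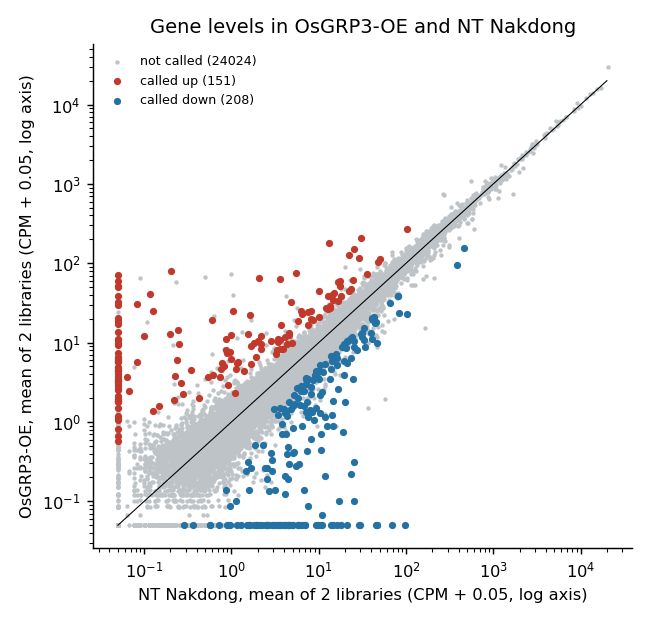
Mean level of each tested gene in OsGRP3-OE against its mean level in NT Nakdong leaves, in CPM plus 0.05 on log axes, with the line of equal levels. The 151 genes called up lie above and the 208 called down below the line, and the 114 called genes with 0 counts in a group form the strips along the axes.

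The called genes were not spread evenly over the genome. Chromosome 11 held 96 of them, which was 6.80% of its 1411 tested genes and 26.7% of all calls, with 47 up and 49 down. Chromosome 7 held 63 (3.39% of its tested genes, 32 up and 31 down) and chromosome 1 held 64 (1.85%, 18 up and 46 down). The share was 0.495% on chromosome 2 and 0.537% on chromosome 3. Together chromosomes 1, 7 and 11 held 223 calls, or 62.1%, against 27.6% of the tested genes. Over the 11 alternatives that share ran from 51.9% without OsGRP3-OE replicate 1 to 67.8% without NT Nakdong replicate 1.

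Within chromosomes the calls were gathered in a few places. In windows of 1 Mb, 232 of the 378 windows with tested genes had no call, whereas 17 windows with at least 5 calls held 163 calls (45.4%) and 5.07% of the tested genes. Of these 17 windows 15 lay on chromosomes 1, 7 and 11. The first megabase of chromosome 1 held 16 called genes of 127 tested. Chromosome 11 held 14 of 51 between 27 and 28 Mb, 12 of 56 between 19 and 20 Mb, and 11 of 51 between 22 and 23 Mb, where 10 of the 11 rose. Between 24 and 25 Mb of chromosome 7, 10 of the 11 called genes fell.

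Neighbours often moved the same way. Among tested genes in genome order there were 12 runs of at least 3 adjacent called genes with the same direction, 42 genes in all, and all 12 lay on chromosomes 1, 7 and 11. Some members lie within the span of another member on the opposite strand. Reads of such pairs may not have been told apart, so they are not separate neighbours. In 3 of the 12 runs every member stayed called with each of the 4 libraries left out, and 28 of the 42 genes did so. On chromosome 11, 3 neighbouring NB-ARC genes rose over 106 kb, from Os11g0588600 to Os11g0590700. The middle gene, Os11g0590400 (adjusted p = 0.0324), was not called with any of the 4 libraries left out (0.0917 to 0.217). Over 81.9 kb of the same chromosome 5 genes fell, from Os11g0225300 to Os11g0226800, 2 of them NB-ARC genes, beside a protein kinase gene and a gene for a NOI protein, a family related to the immune regulator RIN4 of Arabidopsis. The last of these 5, Os11g0226800, had an adjusted p of 0.0455 and was not called without NT Nakdong replicate 1 (0.229) or replicate 2 (0.271) or without OsGRP3-OE replicate 1 (0.0737). On chromosome 1, 3 genes from Os01g0148100 to Os01g0148500 fell over 31.0 kb. A run on chromosome 7 held 3 thionin-like genes, all higher in OsGRP3-OE leaves, over 126 kb.

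**Figure D3:**
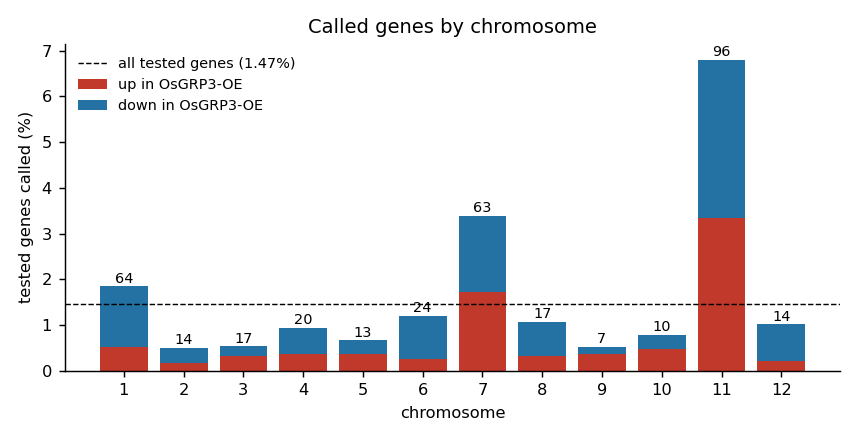
Share of tested genes called on each of the 12 chromosomes in percent, split into genes up and down in OsGRP3-OE leaves, with the number called over each bar and the share of all tested genes (1.47%) as a dashed line. Chromosomes 11, 7 and 1 stand above the line at 6.80%, 3.39% and 1.85%.

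The descriptions of the called genes were sorted into functional groups by keyword, and 92 of the 359 fell into a group. Of the 68 genes named singly here 20 were picked for their description after their values were seen. Genes with NB-ARC domains, the nucleotide-binding switch of intracellular immune receptors that detect pathogen proteins, formed the group with the most calls. Of 236 tested NB-ARC genes 10 rose and 8 fell, 7.63% against 1.47% of all genes, and the median log2 fold change of the group was -0.03, close to the 0.00 of all genes. On chromosome 11 lay 16 of the 18, 8 up and 8 down, of 72 tested there, so the share of the group came mostly from that chromosome. In the windows with at least 5 calls lay 16 of the 18, of 50 NB-ARC genes tested there. Those windows were defined by the same calls, and 13.2% of all genes tested in them were called. The calls were 6 up and 5 down without either NT library, and 3 up and 2 down among genes with at least 10 counts in each of the 4 libraries, a filter that removes receptors read in a single group.

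The NB-ARC gene Os11g0588600 (chromosome 11, 22328967 to 22333982) had 0 CPM in both NT libraries and 72.1 and 70.5 CPM in the OsGRP3-OE libraries. That is at least 1638-fold higher against a floor of 3 counts over the NT group (adjusted p = 1.53e-05). Its neighbour Os11g0590700 was at 0.928 and 0.722 CPM in NT and 9.05 and 6.92 CPM in OsGRP3-OE leaves, a log2 change of 3.28 ± 0.36 (SE, adjusted p = 0.00186). The reverse was seen for Os11g0605100 (23333715 to 23337436), with 48.7 and 43.2 CPM in NT leaves and no count in OsGRP3-OE leaves, at least 866-fold lower (adjusted p = 5.48e-07).

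Opposite moves occurred side by side. Os11g0606400 fell from 16.4 and 18.0 CPM to 0.104 and 0 CPM (adjusted p = 8.1e-06), whereas Os11g0606500, which starts at 23409062, just past its end at 23407183, rose from 18.3 and 16.7 to 47.2 and 54.7 CPM (log2 change 1.54 ± 0.11, adjusted p = 0.000118). In each of the 5 NB-ARC genes above the groups were apart in all 4 libraries, as in every called gene. NB-ARC genes occur in clusters of similar copies, and reads shared between copies were divided by the authors' counting, so values of single members carry that uncertainty.

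Receptor-like kinases, which sense signals at the cell surface, were the next group. Of 151 tested, 4 rose and 11 fell (9.93%, against 1.47% of all genes). Their median log2 change was -0.09 with 40.4% of members above 0, against 49.99% of all tested genes. Without either NT library 2 rose, and 6 (without replicate 1) or 5 (without replicate 2) fell. On chromosome 1 lay 3 of the rises and 7 of the falls. A cluster of 260 kb near the end of that chromosome (731150 to 990745) held 37 tested genes. Its bounds were set by hand, in the 1 Mb window with the most calls (16 of 127 tested), so its counts are no separate evidence. Counted more widely than the group, with any description that names a kinase or LRK, 23 of the 37 are kinases, 5 up and 8 down. Of the 37 genes 32 overlap a gene on the other strand. The labels name a stranded library kit and the deposited headers carry a strand option, but the study's methods name a kit that does not mark strand. Reads of a gene and of its partner on the other strand may therefore not have been told apart, and values of overlapping genes are uncertain.

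In this cluster Os01g0114100, annotated as similar to the kinase RLK17, was at 17.9 and 17.7 CPM in NT leaves and without a count in OsGRP3-OE leaves, at least 335-fold lower (adjusted p = 1.63e-05). Further along, Os01g0115600, similar to LRK14, rose from 1.06 and 0.903 CPM to 26.9 and 23.3 CPM (log2 change 4.68 ± 0.27, adjusted p = 3.37e-05). Os01g0117000, similar to a receptor-like kinase named ARK1AS, rose from 2.72 and 2.84 to 9.77 and 11.3 CPM (1.92 ± 0.18, adjusted p = 0.000684). The groups did not overlap in these genes, as in every called gene. Away from the cluster, Os08g0255500, similar to BAK1, the co-receptor of brassinosteroid and immune receptors, was at 26.8 and 24 CPM in NT and at 0.104 and 0 CPM in OsGRP3-OE leaves (adjusted p = 0.00332). That call was lost without NT Nakdong replicate 1 (adjusted p = 0.0597) or replicate 2 (0.0506) and in DESeq2's test (0.174), which was the highest of the alternatives, the lowest being 5.6e-06.

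Other kinases were called as well. Os11g0134300, similar to a serine/threonine kinase, rose from 3.35 and 3.74 CPM to 77.6 and 48.7 CPM, a 17.8-fold change (log2 4.15 ± 0.22, adjusted p = 2.46e-05). Os02g0622100, similar to a dual specificity kinase, rose 3.52-fold from 15.5 and 17.2 to 57.9 and 57.3 CPM (adjusted p = 2.46e-05). Os02g0615800, with a protein kinase domain, went from 22.2 and 19.5 CPM to no count in OsGRP3-OE leaves, at least 393-fold lower (adjusted p = 1.97e-06). All 3 had groups that were apart, as had every called gene.

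Some genes that turn over proteins were called, among them 2 neighbouring F-box genes on chromosome 7 that both fell. Of 263 F-box genes, whose products choose targets for ubiquitination, 1 rose and 5 fell (2.28%, against 1.47% of all genes). All 6 lay in windows with at least 5 calls, which these calls helped to define and where 14 F-box genes were tested. The F-box gene Os11g0539700 fell from 16.1 and 13.1 CPM to 1.80 and 1.74 CPM (log2 change -3.04 ± 0.19, adjusted p = 5.71e-05). In the same megabase, Os11g0540100, similar to an Xaa-Pro aminopeptidase that trims peptides before proline, had 15.3 and 13.7 CPM in NT and 0 in OsGRP3-OE leaves, at least 273-fold lower. Os07g0543700, similar to a Mov34/MPN/PAD-1 protein, a domain found in the proteasome lid, had 44.7 and 47.3 CPM in NT leaves and 0 in OsGRP3-OE leaves, at least 867-fold lower. Os01g0144200, with the Vid24 domain named after a yeast protein that degrades a gluconeogenic enzyme, fell from 42.8 and 44.9 to 17.5 and 17.8 CPM (-1.31 ± 0.10, adjusted p = 0.000154). The OsGRP3-OE libraries were below both NT libraries in each case, as in every gene called lower. Among 385 proteases and peptidases 2 rose and 3 fell, with a median of 0.00.

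Several called genes act on nucleic acids and chromatin. Os11g0545300 (chromosome 11, 20063595 to 20074615), similar to subunit A of topoisomerase 6, an enzyme that passes DNA strands through breaks, was among the most abundant rises. It stood at 31.2 and 29.7 CPM in NT and at 194 and 217 CPM in OsGRP3-OE leaves, 6.75-fold higher (log2 2.76 ± 0.09, adjusted p = 1.44e-06). Os05g0318300, with a ribonuclease III domain that cuts double-stranded RNA, rose from 23.5 and 20.5 to 123 and 134 CPM (2.55 ± 0.15, adjusted p = 3.37e-05). Os12g0179800, a SIR2-type NAD-dependent deacetylase, rose from 13.8 and 14.1 to 38.8 and 39.9 CPM (1.49 ± 0.12, adjusted p = 0.000285). In these genes the replicates lay close together and the groups far apart.

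On the falling side, Os02g0621100, similar to a Su(var)3-9-related protein, a family of histone lysine methyltransferases, was at 10.2 and 11.3 CPM in NT and at 0 and 0.0362 CPM in OsGRP3-OE leaves (adjusted p = 3.3e-06). Of 71 histone genes 1 rose and 1 fell (2.82%, against 1.47% of all genes). Of 71 transposon-related genes 2 rose and none fell by edgeR (also 2.82%). DESeq2 gave 2 rises and 0 falls, limma 1 and 0, and at an unadjusted p under 0.05 there were 3 higher and 7 lower. Among the transposon-related genes Os07g0248900, with a MuDR transposase domain, was read only in OsGRP3-OE leaves at 5.97 and 7.03 CPM, at least 149-fold higher.

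Genes for RNA-binding and RNA-processing proteins, the groups nearest to OsGRP3, held no call by edgeR. Of 141 genes with RNA recognition motifs, OsGRP3 included, 10 were higher and 15 lower at an unadjusted p under 0.05, 1 was called by DESeq2 and 0 by limma. Of 140 splicing factors 8 were higher and 6 lower at that level, with 0 called by DESeq2 or limma. Of 34 mRNA decay genes 1 was higher, with 0 called by either tool. Splicing itself, the use of exons within a gene, was not analysed here.

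Most ribosomal protein genes lay slightly above 0, but their summed level did not separate the groups, at 32237 and 31996 TPM in NT and 35560 and 31747 TPM in OsGRP3-OE leaves. Of 331 tested, 64.4% lay above 0 with a median log2 change of 0.06, and at an unadjusted p under 0.05 there were 49 higher and 8 lower, against 1665 and 1767 of all genes. The calls were 2 genes for the 60S protein L44 (0.604%, under the 1.47% of all genes). Os07g0450000 rose from 8.35 and 7.97 CPM to 25.3 and 25.2 CPM (log2 change 1.63 ± 0.13, adjusted p = 0.000264). Os07g0523700 was at 35.8 and 35.6 CPM in NT and at 88.5 and 57.2 CPM in OsGRP3-OE leaves (1.03 ± 0.18, adjusted p = 0.0199), a call lost without NT Nakdong replicate 1 (0.194) or replicate 2 (0.199) and, at a change under 2-fold, without OsGRP3-OE replicate 1. L44 is encoded by similar copies, whose reads may be shared. Os01g0148400, with a Brix domain found in ribosome assembly factors, went the other way, from 31.4 and 27.9 CPM to no count in OsGRP3-OE leaves, at least 559-fold lower.

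**Figure D4:**
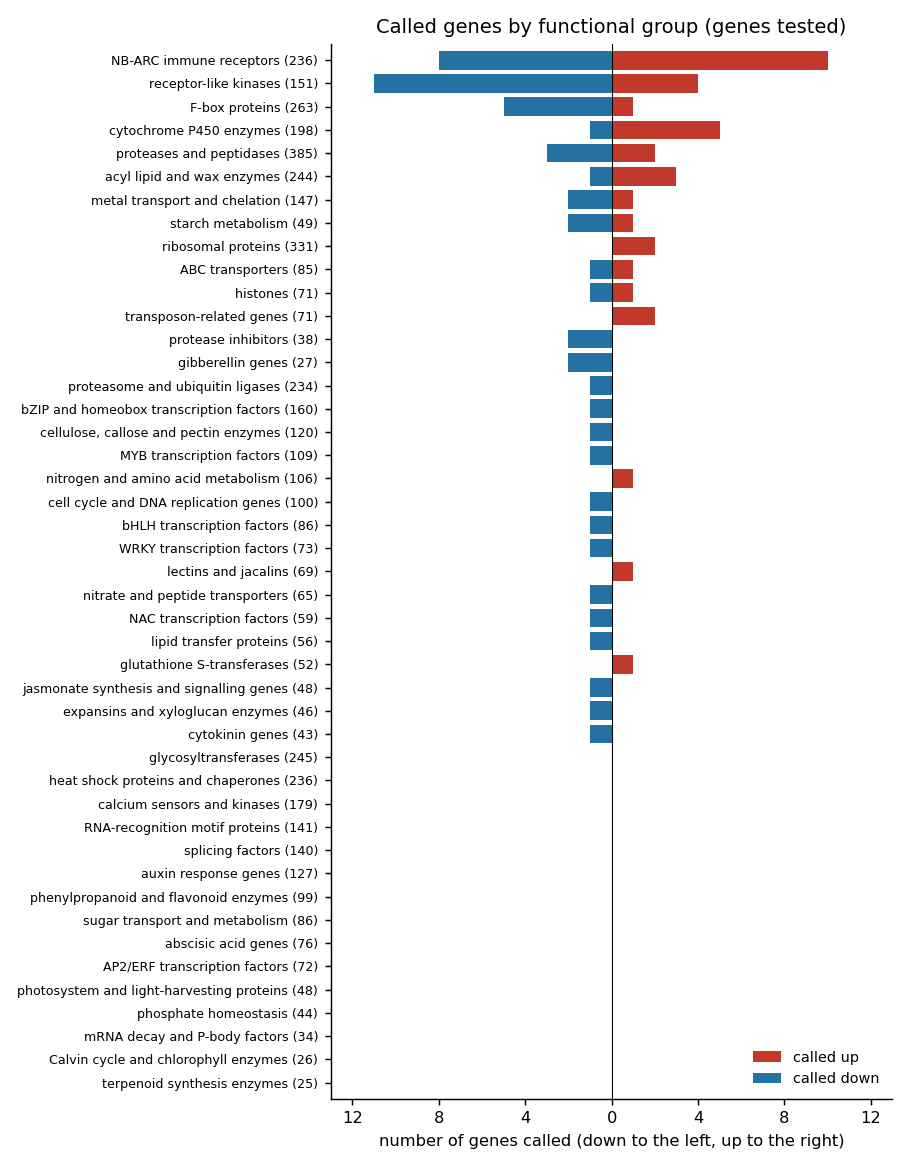
Number of genes called up (right) and down (left) in the larger functional groups, with the genes tested in brackets. NB-ARC genes have 10 rises and 8 falls, receptor-like kinases 4 and 11, and the groups in the lower part of the plot none.

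Among enzymes, cytochrome P450s, which oxidize hormones and defence metabolites, were called in both directions. Of 198 tested 5 rose and 1 fell (3.03%, against 1.47% of all genes), with a group median of -0.02. At an unadjusted p under 0.05, 14 were higher and 18 lower. Os07g0217600 rose from 11.9 and 13.3 CPM to 39.6 and 37.8 CPM (log2 change 1.62 ± 0.13, adjusted p = 0.000261). Os09g0264400 had no count in NT leaves and 7.11 and 12.5 CPM in OsGRP3-OE leaves, at least 226-fold higher (adjusted p = 0.000578). Both were apart from NT leaves in every library, as was every called gene.

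Lipid genes gave 3 rises and 1 fall among 244 (1.64%, near the 1.47% of all genes). DESeq2 gave 3 rises and 3 falls, limma 2 and 4, and at an unadjusted p under 0.05 there were 15 higher and 21 lower, so no direction holds for the group. Os11g0591200, similar to 3-ketoacyl-CoA synthase, which lengthens fatty acids for waxes, rose from 14.2 and 20.8 CPM to 59.9 and 58.0 CPM (1.75 ± 0.18, adjusted p = 0.0012). Os03g0595800, similar to acyl carrier protein, the carrier of growing fatty acids, was at 47.8 and 47.3 CPM in NT and at 117 and 92.5 CPM in OsGRP3-OE leaves (1.14 ± 0.12, adjusted p = 0.00137). Without OsGRP3-OE replicate 1 its change of 0.96 was under 2-fold. Os02g0621300, with a fatty acid hydroxylase domain, fell from 10.7 and 9.62 to 1.42 and 1.09 CPM (-3.01 ± 0.34, adjusted p = 0.00201). Outside that group, Os11g0562100, with the squalene cyclase domain of enzymes that fold squalene into triterpenes, rose 4.04-fold from 29.8 and 28.1 to 110 and 124 CPM (adjusted p = 0.0006).

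Of 27 gibberellin genes 2 fell and none rose by edgeR, which was also 0 rises by DESeq2 and limma, with 2 higher and 5 lower at an unadjusted p under 0.05. The 2 falls were 7.41% of the group, against 1.47% of all genes. The group median was -0.12, with 29.6% of members above 0. Os08g0249900, similar to gibberellin 20-oxidase, which makes precursors of active gibberellins, fell from 12.3 and 15.7 CPM to 0.967 and 1.38 CPM. That was a log2 change of -3.58 ± 0.25 (adjusted p = 0.00012). Os07g0583600, a chitin-inducible gibberellin-responsive gene of the GRAS family of regulators, fell from 81.6 and 83.8 to 29.7 and 17.9 CPM (-1.79 ± 0.19, adjusted p = 0.00156). Both OsGRP3-OE libraries lay far below both NT libraries in either gene.

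Of 49 starch genes 1 rose and 2 fell (6.12%, against 1.47% of all genes), with a median of -0.03. The beta-amylase gene Os07g0543300, whose kind of product releases maltose from starch, rose from 0.232 and 0.155 CPM to 13.5 and 15.4 CPM (log2 change 6.23 ± 0.28, adjusted p = 2.46e-05). Ahead of it on the chromosome, the beta-amylase gene Os07g0543100 was at 6.36 and 7.90 CPM in NT and 3.49 and 3.52 CPM in OsGRP3-OE leaves (-1.03 ± 0.16, adjusted p = 0.0126). The lesser fall was lost without NT Nakdong replicate 2 (adjusted p = 0.12) and in the 4 libraries alone (0.0602), and reads may be shared between such copies. Os09g0469400, similar to the debranching enzyme isoamylase ISO3, fell from 16.5 and 14.9 to 7.04 and 7.43 CPM (adjusted p = 0.00502, lost at 0.0691 without NT Nakdong replicate 1). Among senescence genes, Os04g0249600, similar to the senescence-associated protein DIN1, named after a dark-inducible gene, rose from 13.2 and 12.9 to 251 and 109 CPM (3.79 ± 0.37, adjusted p = 0.000903). The other senescence and chlorophyll breakdown genes were not called, with 1 call of 19 tested (5.26%, against 1.47% of all genes).

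Of 147 genes of metal transport and chelation 1 rose and 2 fell (2.04%, near the 1.47% of all genes), with a median of 0.02. Outside that keyword group 2 genes described as metal transporters rose. Os06g0560000, of the ferroportin family of iron exporters, rose from 4.57 and 5.03 CPM to 33.4 and 30.9 CPM (log2 change 2.74 ± 0.15, adjusted p = 2.46e-05). Os03g0226400, similar to metal tolerance protein 4, of a family that moves metal cations out of the cytosol, rose from 102 and 100.2 CPM to 250.0 and 286 CPM (1.40 ± 0.08, adjusted p = 4.56e-05). The genes beside it went the other way.

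Os03g0226300, similar to a Pto kinase interactor, fell from 26.4 and 27.6 to 7.39 and 8.81 CPM (-1.74 ± 0.15, adjusted p = 0.000402). Os03g0226200, non-symbiotic hemoglobin 2, whose kind of protein binds oxygen and nitric oxide, was at 100.01 and 107 CPM in NT and at 26.4 and 19.1 CPM in OsGRP3-OE leaves (-2.18 ± 0.32, adjusted p = 0.00885). The hemoglobin call was lost without NT Nakdong replicate 1 (0.069) or replicate 2 (0.0797). These 3 neighbours span chromosome 3 from 6624980 to 6641550, and their groups were apart.

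Several single genes of metabolism, in no keyword group and without a count of such genes tested, are given as examples. Os06g0175900 and Os06g0177000, both similar to subunit 8 of the cytochrome b-c1 complex of the mitochondrial electron chain, fell from 85.5 and 76.8 CPM to 39.2 and 37.3 CPM and from 85.7 and 77.5 to 38.9 and 37.3 CPM. Their values are nearly the same in every library, so they may be copies that share reads and count as 1 observation (adjusted p = 0.00035 and 0.000319). Os01g0814900, similar to cytochrome b5 reductase, fell from 64.3 and 65.4 to 32.2 and 30.9 CPM (-1.04 ± 0.09, adjusted p = 0.000433). Os06g0670000, similar to the sulfurase that activates the molybdenum cofactor of aldehyde oxidases, fell from 40.1 and 43.0 to 19.0 and 19.6 CPM (-1.10 ± 0.10, adjusted p = 0.000432). The groups were apart in these genes, as in every called gene.

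Os11g0538900, similar to citrate synthase, the entry enzyme of the citric acid cycle, fell from 32.5 and 30.2 CPM to 13.2 and 12.8 CPM (log2 change -1.27 ± 0.10, adjusted p = 0.000261). Os07g0597100, similar to saccharopine dehydrogenase of lysine breakdown, fell from 23.5 and 23.2 to 6.18 and 6.52 CPM (-1.88 ± 0.15, adjusted p = 0.000319). Os08g0470700, similar to carbonic anhydrase, which interconverts carbon dioxide and bicarbonate, fell from 12.7 and 10.8 to 0.863 and 1.38 CPM (-3.39 ± 0.28, adjusted p = 0.000305). Among transporters, Os09g0332700, similar to a PDR-type ABC exporter, rose from 23.8 and 25.0 to 53.6 and 67.7 CPM (1.31 ± 0.12, adjusted p = 0.000454). It was 1 of 2 called ABC transporters among 85 (2.35%, against 1.47% of all genes), the other being lower.

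Of 6 tested thionins and defensins 3 rose and 1 fell (66.7%, against 1.47% of all genes). The 3 rises are the neighbouring thionin-like genes of the run on chromosome 7. They may be copies that share reads and count as 1 observation. The fall, of the defensin gene Os02g0629800 (adjusted p = 0.0497), was lost without NT Nakdong replicate 1 (0.355), NT Nakdong replicate 2 (0.325) or OsGRP3-OE replicate 2 (0.0844). The rise of the thionin-like gene Os07g0432333 (adjusted p = 0.0328) was lost in the same 3 fits (0.178, 0.196 and 0.12) and in DESeq2 (0.479). In the run on chromosome 7 Os07g0430501 was at 0.629 and 0.464 CPM in NT and at 10.01 and 28.8 CPM in OsGRP3-OE leaves, 35.5-fold higher (log2 5.16 ± 0.54, adjusted p = 0.00137), so the rise was far larger than the gap between both OsGRP3-OE libraries. The Bowman-Birk proteinase inhibitor gene Os01g0127600 fell from 22.4 and 23.8 CPM to 0.345 and 0 CPM (-7.00 ± 0.93, adjusted p = 0.00489). It was 1 of 2 falls among 38 protease inhibitor genes (5.26%, median -0.04). The other, Os03g0734300 (adjusted p = 0.0189), was lost with any of the 4 libraries left out (0.0509 to 0.159). The genes that match pathogenesis-related or reactive oxygen keywords or stand in the study's own gene tables were 367 of those tested. They held 1 rise and 6 falls (1.91%, near the 1.47% of all genes) and are not described singly.

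**Figure D5:**
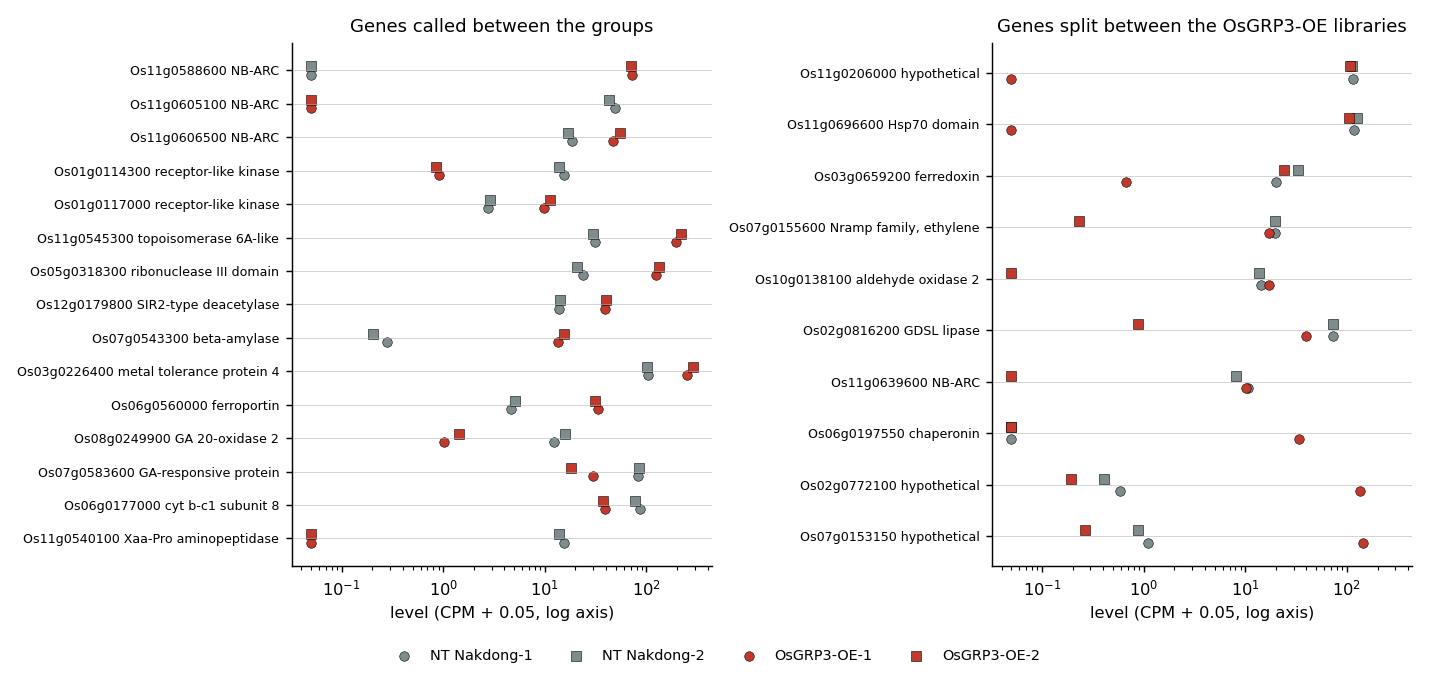
Level in CPM plus 0.05 (log axis) in each of the 4 libraries, for genes called between the groups (left) and genes split between both OsGRP3-OE libraries (right). On the left the groups are apart in every gene, as for Os11g0545300 at 31.2 and 29.7 against 194 and 217 CPM, and on the right a single OsGRP3-OE library lies away from the other 3.

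Transcription factors contributed few calls. The WRKY (73 tested, 1.37%), NAC (59, 1.69%), MYB (109, 0.917%) and bHLH (86, 1.16%) families had 1 called gene each, near the 1.47% of all genes, and each was lower. The NAC call (Os01g0339500, adjusted p = 0.0149) was lost without NT Nakdong replicate 1 (0.085) or 2 (0.152). The bHLH call (Os01g0705700, similar to ICE1, adjusted p = 0.0465) was lost without NT Nakdong replicate 1 (0.226) or 2 (0.336), without OsGRP3-OE replicate 1 (0.127) and in the 4 libraries alone (0.0572). Os11g0685700, similar to WRKY61, went from 24.1 and 26.9 CPM in NT leaves to 0.518 and 0 CPM in OsGRP3-OE leaves (adjusted p = 0.000704), within a run of 5 falling neighbours over 44.2 kb. Of 86 bHLH genes 37.2% lay above 0, with a median log2 change of -0.14. Of 72 AP2/ERF genes none was called by edgeR, DESeq2 or limma, and 4 were higher and 4 lower at an unadjusted p under 0.05.

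In all, 20 of the 52 functional groups held no call by edgeR, although DESeq2 called members of some of them. Of 86 genes of sugar transport and metabolism 1 was called higher by DESeq2 and 0 by limma. Of 245 glycosyltransferases 18 were higher and 17 lower at an unadjusted p under 0.05, with 3 up and 1 down by DESeq2 and 0 by limma. Of 236 chaperones and heat shock proteins 19 were higher and 16 lower at that level, with 1 call by DESeq2 and 0 by limma. Auxin genes (127 tested, 7 higher and 12 lower), abscisic acid genes (76 tested, 7 and 4), calcium-signalling genes (179 tested, 12 and 4) and phenylpropanoid genes (99 tested, 7 and 10) had 0 calls by either tool.

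Lists that mark the state of the leaf held few called genes (1.47% of all tested genes were called), but some summed levels were apart. Photosystem and light-harvesting genes, the hallmark of green tissue, summed to 182438 and 189711 TPM in NT and 196688 and 169922 TPM in OsGRP3-OE libraries, and the groups overlapped. Of the 48 tested 85.4% lay above 0 with a median log2 change of 0.09, and none was called by edgeR, DESeq2 or limma, with 3 higher and 1 lower at an unadjusted p under 0.05. Among genes of dividing and growing tissue some lists leaned downward, but histones showed little lean. Of 71 histone genes 45.1% lay above 0 (median -0.03), with 1 called higher and 1 lower. Their summed level overlapped, at 6332 and 6780 TPM in NT and 7062 and 6753 TPM in OsGRP3-OE libraries. Of 46 expansin and xyloglucan genes 39.1% lay above 0 (median -0.13), with 1 called lower (2.17%). Their summed level was lower and apart, at 1408 and 1567 TPM in NT and 1185 and 1390 TPM in OsGRP3-OE libraries. Of 100 cell cycle and DNA replication genes 33.0% lay above 0 (median -0.10), with 1 called lower and, at an unadjusted p under 0.05, 1 higher and 14 lower. The sum was also lower and apart, at 990 and 976 TPM in NT and 880 and 899 TPM in OsGRP3-OE libraries. Of 120 cellulose, callose and pectin enzymes 30% lay above 0 (median -0.13), with 1 called lower (0.833%). Here too the sum was lower and apart, at 1510 and 1561 TPM in NT and 1307 and 1429 TPM in OsGRP3-OE libraries. The part of leaf age or growth in the results was not tested.

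The 12 clock genes, whose levels depend on the time of day at harvest, differed little between the groups. None was called by edgeR, DESeq2 or limma, none had an unadjusted p under 0.05, and their median log2 change was 0.02. GIGANTEA (Os01g0182600) was at 865 and 852 CPM in NT and 799 and 807 CPM in OsGRP3-OE libraries (log2 change -0.10, adjusted p = 0.629). Its groups did not overlap, which held for 45.8% of all tested genes. The morning gene Os08g0157600, a MYB factor of the clock, was at 162 and 157 CPM in NT and 154 and 167 CPM in OsGRP3-OE libraries, with overlapping groups.

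The OsGRP3-OE libraries also differed from each other in an all-or-none way. Genes with at least 10 CPM in a library and at most 1 CPM in the other numbered 1 in the NT pair and 32 in the OsGRP3-OE pair, and 66 to 74 between an OsGRP3-OE and an NT library. Of the 32 genes, chosen here for this gap, 15 were high in OsGRP3-OE replicate 1 and 17 in replicate 2, and 11 lay on chromosome 11. In 22 of them replicate 2 was the nearer to the NT level and in 10 replicate 1. Only 1 of the 32 was called.

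Single genes show the pattern. Os11g0696600, with an Hsp70 domain, was at 116 and 125 CPM in NT leaves, at 0 in OsGRP3-OE replicate 1 and at 105 CPM in replicate 2. Os07g0155600, annotated as an Nramp family protein of the ethylene pathway, was at 19.6 and 19.4 CPM in NT leaves, at 16.9 CPM in replicate 1 and at 0.181 CPM in replicate 2. Os10g0138100, similar to aldehyde oxidase, was at 14.3 and 13.6 CPM in NT leaves, at 16.9 CPM in replicate 1 and at 0 in replicate 2. Such genes lie near the NT level in a single OsGRP3-OE library. More widely, 221 of 14804 genes with a mean of at least 5 CPM (1.49%) were over 2-fold apart within the OsGRP3-OE pair, against 25 of 14983 (0.167%) within the NT pair.

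The changes over 32-fold by the fit, whose size is not measured for genes at 0 in a group, were also set beside other libraries. These were the 4 libraries labelled Dongjin, taken as separate pairs because they were unlike each other. OsGRP3 itself was at 400 and 403 CPM in NT Dongjin and at 345 and 325 CPM in the libraries labelled OsGRP3-KD. The clock gene Os08g0157600 was at 4100 and 4106 CPM in NT Dongjin but at 141 and 140 CPM in OsGRP3-KD, near its level in Nakdong leaves. Os04g0354600, similar to acyl-CoA reductase, was at 0 in NT Dongjin, at 93.7 and 87.2 CPM in OsGRP3-KD and at 52.0 and 48.9 CPM in NT Nakdong leaves. Of 61 such rises, the NT Dongjin mean lay nearer the NT Nakdong level for 46 genes and nearer the OsGRP3-OE level for 15, on a log scale. The OsGRP3-KD mean lay nearer the OsGRP3-OE level for 27 of the 61. Of 76 such falls, NT Dongjin lay nearer NT Nakdong for 50 genes and OsGRP3-KD for 52. The NB-ARC gene Os11g0605100, at 0 in OsGRP3-OE leaves, was at 72.4 and 75.7 CPM in NT Dongjin and 49.1 and 45.1 CPM in OsGRP3-KD leaves. Os07g0543700, the Mov34/MPN/PAD-1 gene, was at 0 in all 4 of those libraries, as in OsGRP3-OE leaves. The libraries labelled OsGRP3-KD and NT Dongjin were not tested against each other here.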

How the data were processed

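RNA from leaves of rice plants, 4 weeks old by the labels, was sequenced by the authors. There were 2 libraries for each of OsGRP3-OE, NT Nakdong, OsGRP3-KD and NT Dongjin. The file headers and processing notes name HISAT2 and StringTie 1.3.4d on the IRGSP-1.0 build. The deposited gene table holds estimated counts, which the authors made from StringTie coverage, as well as FPKM and TPM. The counts are coverage times transcript length over a read length of 101, rounded up. That rule gave the deposited value for at least 99.99% of genes in each library. Exon coverage was made by the authors with StringTie. The test had been planned for plain counts, and the estimated counts took their place. Columns of values that match no sample numbered 0.

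Counts of all 8 libraries were scaled by TMM, filtered by filterByExpr and fitted by edgeR 4.0.16 (quasi-likelihood, a mean per group, R 4.3.3), with p-values adjusted by Benjamini and Hochberg over 24383 genes. Called genes changed at least 2-fold with an adjusted p under 0.05. With 2 libraries per group the fit has 4 residual degrees of freedom. At 27662050 to 38940899 counts per library a gene at 0 in a whole group was given a bound against 3 counts over that group, which covers counting error only. The fit was tested on 1 set of simulated counts, with 50 genes of ample counts changed at each fold. Of the 2-fold changes 52% were called and of the 4-fold changes 94%. Also called were 23 genes that had not been changed, so some of the calls in the real data may be false.

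Genes were named by rule: in each keyword group the 2 rises and 2 falls with the smallest p and a mean of at least 5 CPM, the 5 called genes per direction with the highest mean, members of runs of 3 or more, OsGRP3 and 12 clock genes. Outside that rule, 20 genes were named after their values were seen. The comparison and the gene groups were chosen with earlier results of these data known, and the keywords of some groups were corrected after values were seen, since they matched parts of other words. Groups received no test. Alternatives were median-of-ratios size factors, DESeq2 1.42.0, no filter, at least 10 counts in the 4 libraries, those 4 libraries alone, limma 3.58.1 on log2(FPKM + 1), a replicate block and leaving out each library. Shares of calls by chromosome under these alternatives were added after seeing the data.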

Additional observations from a re-analysis of the deposited data

How the results depend on the processing

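OsGRP3 kept its direction in all 11 alternatives. Its log2 change was 0.51 with an adjusted p of 0.000124 in DESeq2 and 0.51 with 0.0125 without a filter, both past the threshold, and from 0.34 to 0.67 when a library was left out. Calls numbered from 91 to 179 up and from 111 to 331 down with a library left out, and 83 up and 107 down with at least 10 counts in each of the 4 libraries, a filter that removes genes at 0 in a group. At 2-fold and an unadjusted p under 0.05, 425 genes (1.74%) were up and 633 (2.6%) down. With at least 10 counts these were 218 and 361, in limma on FPKM 166 and 302, and with a library left out from 353 to 516 and from 462 to 999. The causes of the changes in limma and without single libraries were not tested.

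Replicates share numbers in the labels, but nothing says that a number marks a shared batch, and deviations of same-numbered libraries correlated at -0.03 across 24383 genes, with only 2 pairs. With replicate number as a block 138 genes were called up and 167 down, 274 of them among the 359.

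Of 67 other genes named, 51 stayed on their side of the adjusted threshold and kept their direction in each alternative that could test them. For 22 of the 67 the filter at 10 counts in each library gave no value, since it removed them. The clock gene Os08g0157600, which did not pass the test, changed sign to -0.049 in limma and ran from -0.044 to 0.069 with a library left out. Os10g0138100, all-or-none between both OsGRP3-OE libraries, ran from -11.75 to 0.27 on the log2 scale with a library left out. Of 473 recounts of called genes per functional group 290 were within 1.5 times the main count and 183 were not, most of these counts being 5 or fewer.

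With 2 libraries per group, genes that change less than 2-fold or have few counts are hardly resolved, and a gene missing from the calls is not shown to be unchanged. Since it is not stated whether the OsGRP3-OE libraries are separate transgenic events, effects of OsGRP3 and of a transformed line cannot be told apart.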
